A study of Mus musculus with 4 samples.

Results

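MHC class I and peptide loading genes were followed in mouse neural stem cell cultures on Affymetrix expression arrays. The set holds 9 genes, namely the class I heavy chain genes H2-K1, H2-D1, H2-T3, H2-T23 and H2-M3, the light chain gene B2m, and the peptide loading genes Tap1, Tap2 and Tapbp. A probe set was taken where the platform annotation gives it to a single one of these genes, which left 25 of the 22690 probe sets on the array and 8 of the 9 genes. H2-T23 has no probe set of its own. The genes were chosen on their MAS5 signals, with the difference between the genotypes already known, so that contrast is given for them as a description, without a test. The groups were 3 samples labelled Olig1 KO and 1 labelled wild type, 1 array each. All 4 were neural stem cells of the ganglionic eminences (ventral forebrain) at embryonic day 14.5, on a C57/Bl6 background, and grown without serum and with EGF. Olig1 is a basic helix-loop-helix transcription factor gene of the oligodendrocyte lineage, and the comparison asks which transcripts differ when it is mutated. The labels do not describe the allele and do not tie the KO samples to separate embryos or cultures, so the spread between KO arrays may be technical.

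MHC class I molecules show peptides from inside the cell to CD8 T cells and natural killer cells. A heavy chain pairs with beta-2-microglobulin in the endoplasmic reticulum, where the transporter made of Tap1 and Tap2 brings peptides in and tapasin, the product of Tapbp, holds the empty molecule beside the transporter. Class I expression is known to be low in the nervous system and to be raised by interferons, and its heavy chains have been linked to synapse pruning and to neuron-glia contacts in the mouse. The heavy chain genes are close paralogues and highly polymorphic between mouse strains, so many of their array probes can bind more than 1 member of the family.

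Stretches before the starts of some of these genes are printed here, with matches to short motifs of class I promoters marked. The stretches are 180 bases ending just before the annotated start, credited to RefSeq on GRCm38.p6, in which 8 of the 9 genes had an entry. They are H2-K1 (chr17:34000348-34000527, minus strand), H2-D1 (chr17:35262914-35263093, plus strand), H2-M3 (chr17:37270054-37270233, plus strand), B2m (chr2:122147507-122147686, plus strand) and Tap1 (chr17:34187376-34187555, plus strand). Each is printed along its gene's strand, and for H2-K1, which has 2 annotated starts in that table, before the upstream one. The capitals mark GATTCCC, the downstream part of the NF-kappaB element known as enhancer A, then the core of interferon regulatory factor sites (AANNGAAA, in the 3 heavy chain genes on the other strand), and a pair made of TGACG, the X2 element bound by CREB and ATF factors, and ATTGG, the Y box bound by NF-Y. In Tap1 the capitals mark TGACG alone.
H2-K1: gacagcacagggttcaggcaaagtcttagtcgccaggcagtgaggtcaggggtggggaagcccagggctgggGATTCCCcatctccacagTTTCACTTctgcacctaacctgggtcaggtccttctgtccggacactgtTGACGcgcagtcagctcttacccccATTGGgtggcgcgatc
H2-D1: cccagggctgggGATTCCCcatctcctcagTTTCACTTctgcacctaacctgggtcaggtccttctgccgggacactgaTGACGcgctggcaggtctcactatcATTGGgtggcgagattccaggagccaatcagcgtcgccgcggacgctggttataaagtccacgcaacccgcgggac
H2-M3: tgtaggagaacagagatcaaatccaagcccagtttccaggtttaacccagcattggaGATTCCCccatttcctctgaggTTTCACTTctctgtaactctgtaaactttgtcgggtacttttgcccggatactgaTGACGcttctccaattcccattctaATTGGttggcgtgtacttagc
B2m: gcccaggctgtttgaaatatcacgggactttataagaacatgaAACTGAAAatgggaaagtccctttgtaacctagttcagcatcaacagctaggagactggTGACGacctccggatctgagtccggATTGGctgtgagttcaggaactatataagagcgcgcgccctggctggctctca
Tap1: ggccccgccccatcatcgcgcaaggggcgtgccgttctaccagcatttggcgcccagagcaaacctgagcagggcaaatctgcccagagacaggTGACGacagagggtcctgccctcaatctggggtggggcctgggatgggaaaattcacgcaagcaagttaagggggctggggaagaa

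The pair of TGACG and ATTGG, with 18 to 22 bases between them, was searched on both strands in the 250 bases before the start. It was found in 4 member genes, H2-K1, H2-D1, H2-M3 and B2m, each time with 20 bases between its parts. Of the 32851 windows of that length in the table, 0.247% held such a pair. GATTCCC was found in H2-K1, H2-D1 and H2-M3 and in 2.83% of all windows. The interferon regulatory factor core was found in H2-K1, H2-D1, H2-T3, H2-T23, H2-M3 and B2m and in 21.3% of all windows. TGACG alone was found in 17.8% and ATTGG alone in 33.8% of all windows, and in the members no match to a motif overlapped a match to another, the pair aside. Tap1 held TGACG and ATTGG on opposite strands and far apart, so they do not count as a pair. Its start lies 225 bases from that of Psmb9, an immunoproteasome gene that runs the other way. Tapbp held ATTGG alone. The paralogues share sequence around these matches, the motifs were chosen with the sequences in view, and a match is a description of letters only.

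**Figure D1:**
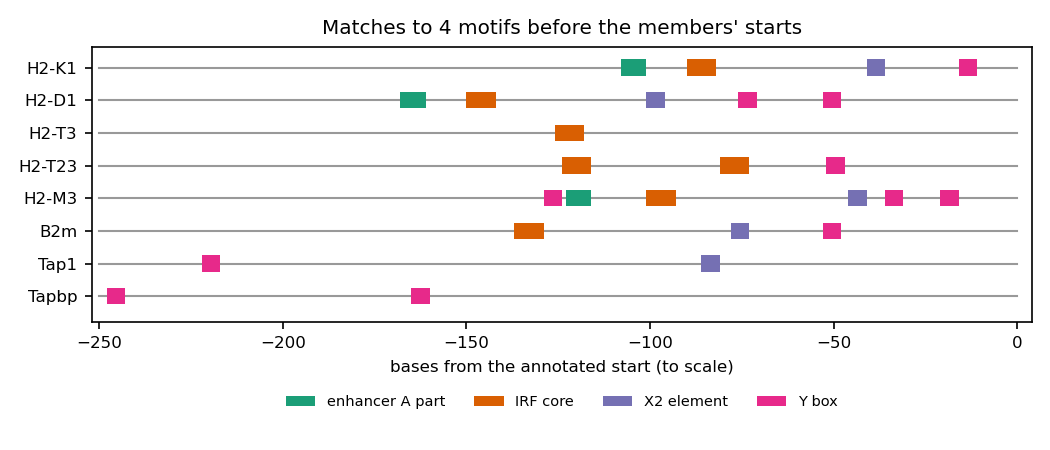
Matches to the part of enhancer A, the interferon regulatory factor core, TGACG (X2 element) and ATTGG (Y box) in the 250 bases before the annotated start of 8 member genes. The x axis gives bases from the start, each row is a gene, and each coloured block is a match drawn to scale, with the enhancer A, interferon and TGACG blocks in the same order in H2-K1, H2-D1 and H2-M3.

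The values are MAS5 signals on a linear scale. The highest of 27 bacterial control probe sets without a target served as the background of each array, at 21.3, 39.99 and 87.8 in KO replicates 1, 2 and 3 and 30.5 in the wild-type array. Differences are between values of log2(signal + 14.4), which understates them for dim probe sets, and signals are compared between arrays only, never between probe sets. The arrays labelled KO gave Olig1 signals of 3840, 4438 and 8548, against 7618 in the wild-type array, so that transcript does not check the labels. The arrays form pairs that cut across genotype, since the X-inactivation RNA Xist gave 8472 in KO replicate 1 and 9480 in the wild-type array but 161 and 46.5 in KO replicates 2 and 3. Of 10 neural stem cell markers, 8 were above background in all 4 arrays, Sox2 among them at 3829, 3759 and 4848 in the KO arrays and 4073 in the wild-type array. Msi1, another of the markers, gave 223, 87.2 and 71.0 in the KO arrays, at background in KO replicate 3, against 308 in wild type.

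Of the members' 25 probe sets, 10 were above background in all 4 arrays, from 5 genes, and 5 were at background in all 4. Of the 10, 8 lay below wild type in all 3 KO arrays and 0 above it in all 3, where 21.7% and 24% of all 13171 such probe sets on the array lay on those sides. The contrast was used in choosing the genes, and the 10 probe sets are not independent, since 6 of them belong to the paralogues H2-K1 and H2-D1. Their median log2 difference was -0.73. Probe sets whose name ends in _x_at, which may bind several members of a family, made up 13 of the 25, and _a_at, which covers several transcripts of a gene, another 3.

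H2-K1 encodes a classical class I heavy chain, and 3 of its 4 probe sets were lower in every KO array. Its brightest probe set, 1425336_x_at, gave signals of 479, 502 and 688 in KO replicates 1, 2 and 3, against 1255 in the wild-type array. The KO arrays lay close together and all well below the wild-type array. Their mean was 556 ± 114 (SD, n = 3), which is 0.443 times the wild-type signal, with a log2 difference of -1.17 and an SD of 0.28 over the KO arrays. Within the pair that shares its Xist level, KO replicate 1 differed from wild type by -1.36.

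A second H2-K1 probe set, 1427746_x_at, gave 107, 89.9 and 93.6 in the KO arrays, against 183 in wild type, a log2 difference of -0.83. The probe set 1451931_x_at gave 169, 97.7 and 106 in the KO arrays, against 217 in wild type, a log2 difference of -0.77, with KO replicate 1 the nearest to wild type. The last H2-K1 probe set, 1450534_x_at, did not share this order. It gave 102, 178 and 170.4 in the KO arrays and 134 in the wild-type array, so that the wild-type value lay inside the KO range and the log2 difference was 0.11. All 4 carry the mark for cross-hybridization, and which family members each detected was not tested.

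H2-D1 encodes the other classical heavy chain of this strain, and it has 9 probe sets, of which 2 were above background in all 4 arrays. The brighter, 1425545_x_at, gave 198, 97.4 and 187 in the KO arrays, against 281 in wild type. The other, 1451784_x_at, gave 162, 87.4 and 119.6 in the KO arrays, against 202 in wild type. KO replicate 2 was lowest with both, and no KO array reached the wild-type value. The log2 differences were -0.81 (SD 0.51 over the KO arrays) and -0.69 (SD 0.40). With the brighter probe set the difference was -0.51 without KO replicate 2 and -0.47 between KO replicate 1 and wild type, the pair that shares its Xist level.

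The remaining 7 H2-D1 probe sets were at background in at least 1 array, 3 of them in all 4, so their differences have no exact size. Among them 1451683_x_at gave 41.8, 40.6 and 52.8 in the KO arrays, at background in KO replicate 3, against 65.7 in wild type. The unmarked probe set 1426324_at gave 9.66, 61.8 and 59.6 in the KO arrays, at background in KO replicates 1 and 3, against 63.0 in wild type. The other unmarked one, 1451934_at, exceeded background in KO replicate 2 alone, at 66.4. No unmarked probe set of H2-D1 therefore measured it in all arrays. A probe set that the annotation gives to H2-K1 and H2-D1 together, and which is therefore no member, gave 68.4, 45.7 and 103 in the KO arrays, against 140.4 in wild type.

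H2-T3 encodes the thymus leukaemia antigen, a nonclassical heavy chain best known from gut epithelium and thymus, and its 2 probe sets ran in opposite directions. The marked 1452548_x_at gave 85.6, 98.6 and 92.6 in the KO arrays, against 199.7 in wild type, a log2 difference of -1.01 with an SD of 0.089 over the KO arrays. The 3 KO values almost coincided, but that of KO replicate 3 lay close to the background of its array, 87.8. The unmarked 1427726_at gave 23.3, 80.1 and 46.3 in the KO arrays, at background in KO replicate 3, against 10.9 in wild type, also at background. Since 1 probe set is lower and the other higher in all 3 KO arrays, the data give no single direction for H2-T3.

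H2-M3 encodes a heavy chain that presents formylated peptides. Its only probe set gave 73.9, 110.1 and 14.98 in the KO arrays and 66.6 in the wild-type array, at background in KO replicate 3. The wild-type value lay inside the KO range. H2-T23, the gene of the Qa-1 antigen, was measured solely by probe sets shared with the pseudogene H2-T-ps. The shared probe set above background in all 4 arrays gave 91.7, 147 and 155 in the KO arrays, against 78.2 in wild type, the opposite order to H2-K1 and H2-D1.

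B2m encodes beta-2-microglobulin, the light chain that every classical class I molecule needs. Its probe set 1449289_a_at gave 2559.7, 2011 and 2367 in the KO arrays, against 3455 in wild type. With it all KO arrays were lower, by -0.58 on the log2 scale (SD 0.18). The probe set with the higher mean, 1452428_a_at, gave 2791, 3486 and 3946 in the KO arrays and 3916 in the wild-type array, so that KO replicate 3 was level with wild type. Its log2 difference was -0.21 (SD 0.25), smaller than the spread between KO arrays, and -0.078 without KO replicate 1. Within the pair of KO replicate 1 and wild type the 2 probe sets differed by -0.43 and -0.49, and they parted in KO replicates 2 and 3.

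**Figure D2:**
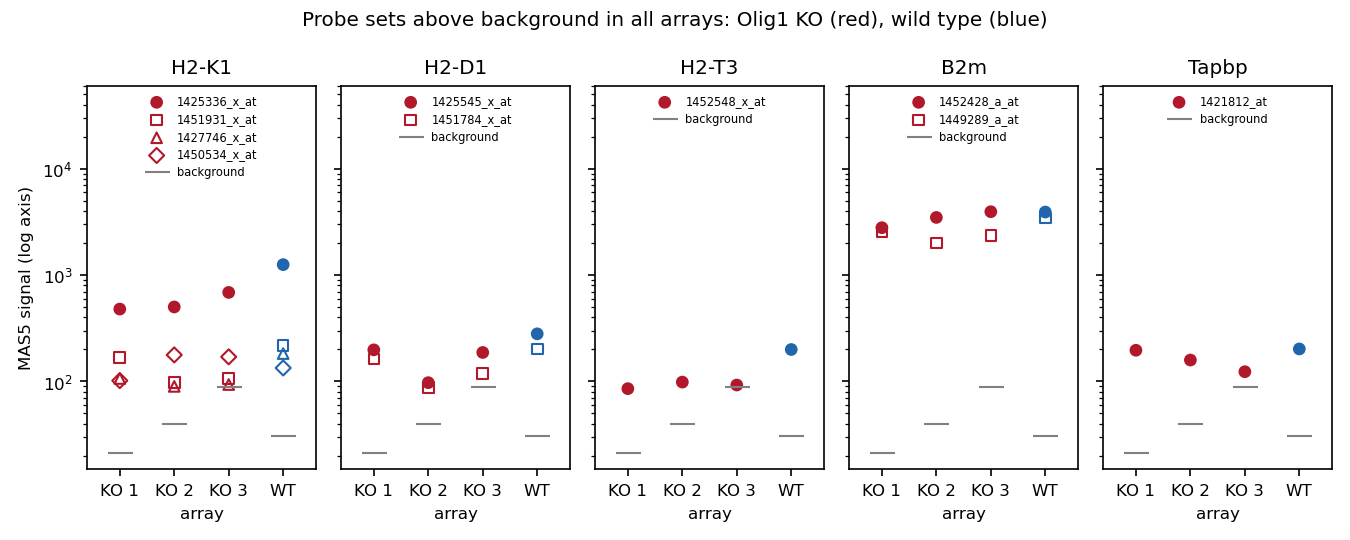
MAS5 signals (log axis) of the 10 member probe sets above background in all arrays, in the 3 Olig1 KO arrays (red) and the wild-type array (blue). Each marker shape is a probe set and the grey bars give the background of each array. H2-K1 1425336_x_at runs from 479 to 688 in the KO arrays, against 1255 in wild type, while B2m 1452428_a_at in KO replicate 3 is level with wild type.

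The peptide loading genes supply the heavy chains with peptides. Tapbp gave 197, 159 and 123 in the KO arrays, against 202 in wild type, with its brighter probe set, neither of its probe sets being marked. All KO arrays were lower, but KO replicate 1 differed by only -0.038 on the log2 scale, and the mean difference of -0.34 was close to the SD of 0.31 over the KO arrays. Without KO replicate 3 it was -0.18. The other Tapbp probe set gave 73.2, 39.0 and 10.9 in the KO arrays, at background in KO replicates 2 and 3, against 105 in wild type.

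Tap1 gave 91.2, 115 and 84.2 in the KO arrays and 110.4 in the wild-type array with its brightest probe set, at background in KO replicate 3. The wild-type value lay inside the KO range, and the log2 difference was -0.18 (SD 0.20). Of the other 3 Tap1 probe sets, 2 were at background in all 4 arrays and 1 exceeded it in KO replicate 1 alone. Tap2 gave 47.3, 11.4 and 58.7 in the KO arrays, at background in KO replicates 2 and 3, against 75.5 in wild type. Tap2 was thus too dim for a difference to be sized, and that of Tap1 includes an array at background.

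**Figure D3:**
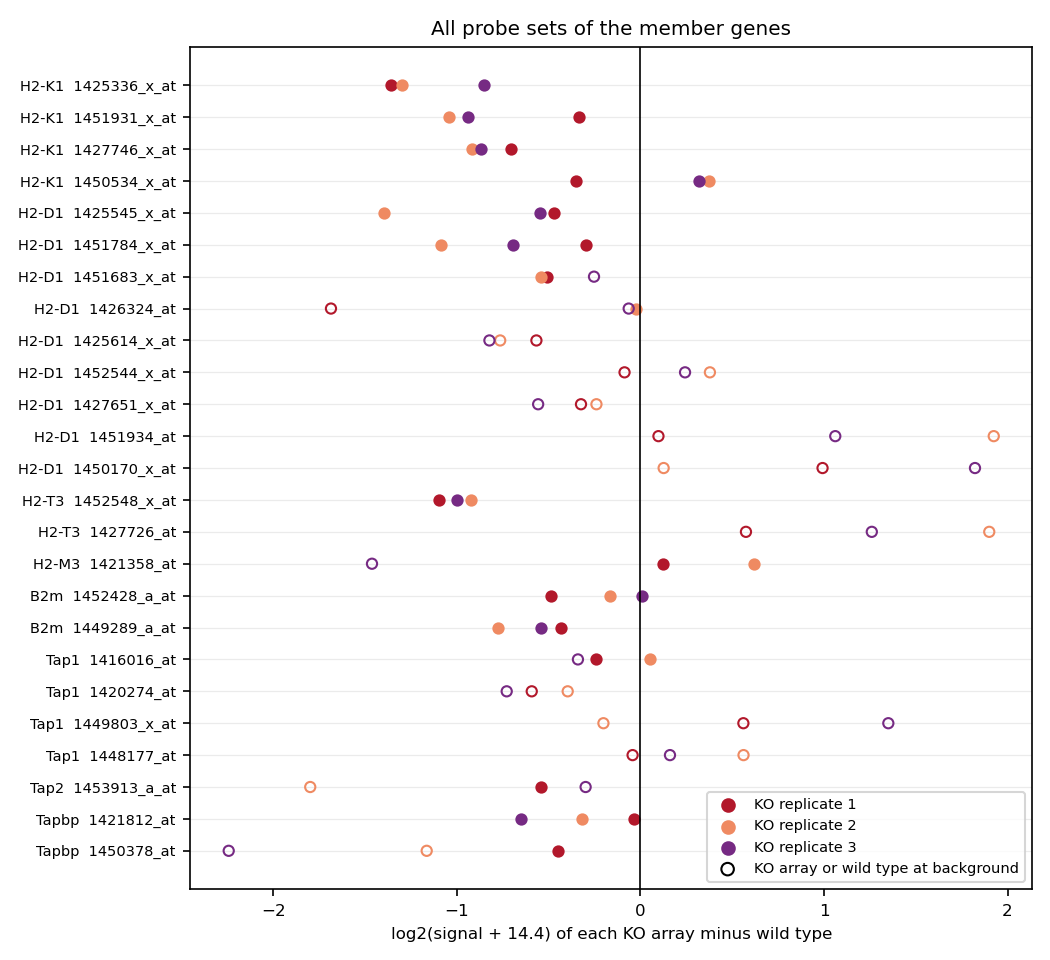
Difference of log2(signal + 14.4) between each KO array and the wild-type array for all 25 member probe sets, 1 row each. Filled points compare 2 arrays above background, and open points involve an array at background. The filled points of H2-K1 (except 1450534_x_at), H2-D1, H2-T3 and B2m 1449289_a_at lie left of 0. Filled points also lie right of 0 for H2-M3 (KO replicates 1 and 2), Tap1 1416016_at (KO replicate 2) and B2m 1452428_a_at (KO replicate 3). Open points scatter to both sides.

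With 1 probe set per gene, that with the highest mean, and the 40% of genes with the lowest mean left out, 6 of the 9 members were among the 7436 genes kept. In that set 4 members, H2-K1, H2-D1, H2-T3 and Tapbp, were lower in all 3 KO arrays, H2-T3 with its marked probe set, and 0 were higher in all 3, against 20.6% and 23.2% of all kept genes. The 6 had a median log2 difference of -0.57, and all kept genes one of -0.0001. H2-K1 and H2-T3 were among the 88 kept genes (1.18%) at -1 or below. On the log2 scale H2-T3 stood at 6.64, 6.82 and 6.74 in the KO arrays and 7.74 in wild type. The lowest mean kept was 6.76, so H2-T3 passed the filter only through its high wild-type value. Its place in these counts and in the median therefore carries no weight of its own. A test with limma over all kept genes called 0 genes higher and 0 lower (0% each) at an adjusted p under 0.05, and 168 genes (2.26%) had an unadjusted p under 0.05. Fewer cells that express a gene and less of its RNA per cell cannot be told apart in these bulk samples.

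**Figure D4:**
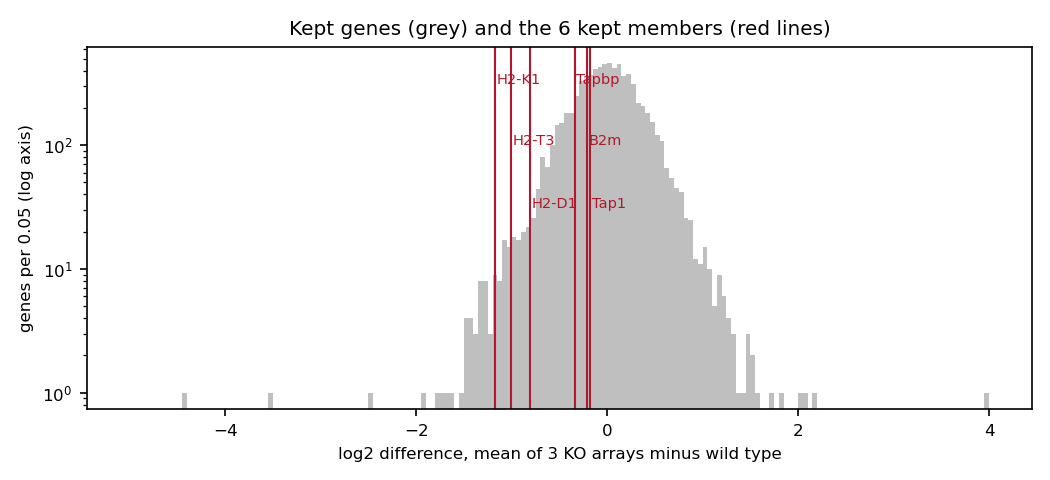
Distribution of the log2 difference, mean of the 3 KO arrays minus wild type, over 7436 kept genes (grey bars, log count axis), with the 6 kept members as red lines. H2-K1, H2-T3 and H2-D1 lie in the lower tail at -1.17, -1.01 and -0.81, and Tapbp, B2m and Tap1 within the bulk.

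The other genes of the pathway did not share a direction. Of 72 genes listed around antigen presentation, 52 were measured and 29 kept. Of these, 9 were below wild type in every KO array and 9 above it, against 20.6% and 23.2% of all kept genes, and limma called 0 of them. Their median log2 difference was -0.035.

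The immunoproteasome cuts peptides that suit class I. Its subunit gene Psmb10 gave 431, 342 and 350.2 in the KO arrays, against 516 in wild type, a log2 difference of -0.46. Psme1, a subunit of the proteasome activator, gave 662, 667 and 635 in the KO arrays, against 736 in wild type, a log2 difference of -0.16. Both were lower in all KO arrays, and neither passed the test. Psmb9, the neighbour of Tap1, gave 35.0, 19.8 and 12.1 in the KO arrays, at background in KO replicates 2 and 3, against 71.2 in wild type. Psmb8, the third catalytic subunit, exceeded background in KO replicate 1 alone, at 29.3. Of the constitutive partners, Psmb7 and Psmb5 differed by -0.31 and -0.28 and were lower in all KO arrays, while Psmb6 differed by 0.10.

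Among the endoplasmic reticulum chaperones that fold heavy chains, the oxidoreductase gene Pdia3 differed by -0.43 and calnexin, Canx, by -0.32. In both, with the brightest probe set, KO replicate 1 was above wild type and KO replicates 2 and 3 below it. Another Canx probe set, above background in all 4 arrays, gave 1729, 732 and 423 in the KO arrays, against 2115 in wild type. With it all KO arrays were lower, KO replicate 1 by -0.29, and the mean difference was -1.36. The last Canx probe set gave 245, 191 and 212 in the KO arrays, against 232 in wild type, the same order as the brightest. The size of the difference in Canx, and the side of KO replicate 1, thus depend on the probe set. Hspa5, the general chaperone BiP, differed by 0.29 and was higher in all KO arrays with its brightest probe set. Its other probe set gave 2421, 1446 and 1554 in the KO arrays, against 2101 in wild type. With that one the difference was -0.25 and only KO replicate 1 was higher, so the data give no single direction for Hspa5. Of the other class I genes, 2 of 23 listed were kept and they lay on opposite sides. Cd1d1, which presents lipids, gave 529, 578 and 693 in the KO arrays, against 429 in wild type, and Hfe, the iron regulator, gave 83.4, 143 and 105.6 in the KO arrays, against 159 in wild type.

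Of 17 kept regulators of class I transcription and interferon signalling, 4 were below wild type in every KO array and 6 above it, with a median log2 difference of 0.12. The kinase gene Jak2, which signals from the interferon gamma receptor, gave 687, 742 and 792 in the KO arrays, against 456 in wild type, a difference of 0.68. Rfx5, whose product binds the X box next to X2, differed by 0.60 and was higher in all KO arrays. Creb1, a gene of an X2-binding factor, differed by -0.51 and was lower in all KO arrays with its brightest probe set, while 2 of its other 3 probe sets, all at background in at least 1 array, were mixed. None passed the test. No class II gene was kept, and of 6 measured none was above background in all 4 arrays with its brightest probe set.

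**Figure D5:**
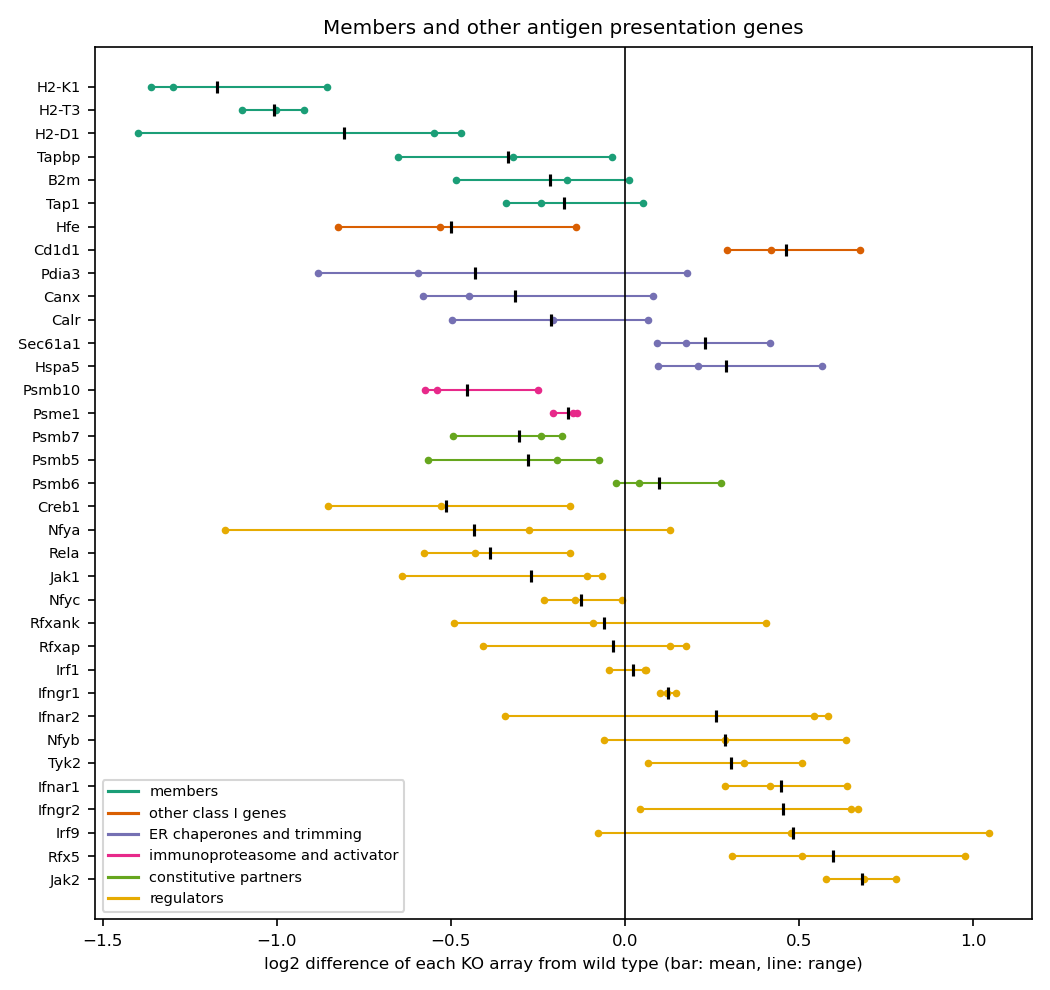
Log2 difference from wild type of each KO array (points), their range (lines) and mean (black bars) for 6 kept members and 29 kept genes of other antigen presentation lists, coloured by list. The means of H2-K1, H2-T3 and H2-D1 lie further below 0 than those of the other genes shown. In KO replicates 1 and 3, H2-D1 (-0.47 and -0.55) lies inside the ranges of Pdia3 and Creb1. Jak2 and Rfx5 lie above 0 in all KO arrays.

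Markers of cells known for high class I levels were dim. Of 14 microglia and macrophage markers, 4 were above background in all 4 arrays, and C1qa, C1qc, Fcer1g and Ptprc, the gene of CD45, were at background in all 4. The summed signal of each gene's brightest probe set, dim ones included, was 655, 864 and 717 in the KO arrays, against 561 in wild type. It includes P2ry12, at 128, 87.0 and 30.5 in the KO arrays, against 20.0 in wild type, at background in KO replicate 3 and wild type. Such a sum is weighted to bright probe sets and describes the arrays only. Of 6 endothelial markers none was above background in all 4 arrays, and their sum ran the other way. It was 295, 229 and 200 in the KO arrays, against 306 in wild type. Of 5 neuronal markers 3 were, and they did not share a direction. Map2, a gene of a dendrite protein, gave 1447, 784 and 593 in the KO arrays, against 1766 in wild type. Tubb3, a neuronal tubulin gene, gave 63.3, 61.9 and 92.0 in the KO arrays, against 46.9 in wild type, the opposite order, and Dcx gave 57.0, 52.6 and 195 in the KO arrays and 126 in wild type. The part of neurons in the class I values was not tested.

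The kept genes outside the set whose profile over the 4 arrays lay nearest to that of H2-K1 were named by the Euclidean distance of log2 values centred on each gene's mean. Of 7430 genes compared, the 5 nearest were Syt7, a calcium sensor of exocytosis, Mt3, a brain metallothionein, Cdo1, the cysteine dioxygenase, Ptgr2, a prostaglandin reductase, and Cox8b, a cytochrome c oxidase subunit, at distances of 0.13, 0.16, 0.19, 0.23 and 0.36. Mt3 gave 4579, 4458 and 5872 in the KO arrays, against 10143 in wild type, and Syt7 gave 60.5, 68.5 and 107 in the KO arrays, against 193 in wild type. Of the members, H2-T3 lay at 0.41 from H2-K1, H2-D1 at 0.77, B2m at 0.86, Tap1 at 1.06 and Tapbp at 1.09. Of the other genes, 0.108% were closer to H2-K1 than H2-T3 was, 3.54% closer than H2-D1 and 6.46% closer than B2m, while 24.5% were closer than Tap1 and 29.1% closer than Tapbp. The contrast between the genotypes is part of each profile and was known when the members were chosen. Their nearness to H2-K1 is therefore no independent result. H2-T3 was placed by its marked probe set, and its unmarked one ran the other way. With 4 arrays these distances describe the libraries at hand only.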

How the data were processed

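The authors deposited 1 MAS5 signal intensity per probe set and array on a linear scale; the submitters' processing notes name MAS5 with no version or settings. The trimmed mean (2% off each tail) was about 500.2 in every array. Probe sets were named from the platform's annotation table, 20393 with 1 symbol, 691 with several and 1606 with none, with symbols updated through a RefSeq table of GRCm38.p6, which served for names and neighbours. Signals became log2(signal + 14.4), the pseudocount being 0.1 times the median of all values, with no further normalization. Genes (12393) were represented by the probe set with the highest mean, and the lowest 40% left out. The test of genotype was limma 3.58.1 in R 4.3.3 (lmFit and eBayes, two-sided, Benjamini-Hochberg adjustment). With a lone wild-type array the fit takes its spread, on 2 residual degrees of freedom, from the KO arrays and assumes that wild type varies like them. The code was tested on simulated data. The number of arrays limits the precision. Members, lists and motifs were chosen with earlier results of these data known. The text names all members, the 3 kept genes (or all, where fewer) of each antigen presentation list with the largest difference, all immunoproteasome pairs, the 5 genes nearest to H2-K1, and Olig1 and Xist. Psme1 and the cell type markers named were picked after their values were seen. Other settings tried were the scaling, the pseudocount, no filter, other probe sets, other eBayes options, each KO array left out, and the array pair as a block.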

Additional observations from a re-analysis of the deposited data

How the results depend on the processing

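The log2 differences of the 6 kept members were negative in 61 of 64 recomputations, and the exceptions came from the choice of probe set. Many of these recomputations could not change a sign. In H2-K1, H2-D1, H2-T3 and Tapbp every KO array was lower, so leaving one out, the block or another pseudocount keeps the same probe set negative. Dropping the filter alone repeated the main values. The tally is therefore no measure of robustness. Averaging all probe sets of a gene gave -0.67 for H2-K1 and -0.81 for Tapbp. The filter on low values removes H2-D1, H2-T3 and Tap1 under that average. Without the filter, an alternative chosen after seeing the data, it gave -0.16 for H2-D1, 0.12 for H2-T3 and 0.012 for Tap1, with probe sets at background included. Unmarked probe sets without the filter gave -0.59 for H2-D1 and 1.25 for H2-T3, while H2-K1 and B2m have none. H2-T3 differed by -1.11 with a pseudocount of 1, by -0.90 with one of 32, and by -1.10 with the array pair as a block, which leaves the difference of KO replicate 1 from wild type. B2m differed by -0.49 with that block and by -0.078 without KO replicate 1. The count of 4 members lower in all KO arrays (20.6% of all kept genes) became 3 with the average of all probe sets (23.8% of genes) and 1, Tapbp (21.7% of genes), when probe sets ending in _x_at, _s_at or _a_at were left out, which removes every probe set of H2-K1 and B2m. It was 4 to 5 when a KO array was left out, where 26.02% to 34.9% of all genes were lower in both remaining KO arrays. Without a filter on low values, 15 other antigen presentation genes lay below wild type in every KO array and 16 above it, since more genes are counted. The number of genes called by limma was 0 to 2 when a KO array was left out: Eif2s3y and Tmem87a were called without KO replicate 1, and 0 under every other alternative, where 63 to 327 genes had an unadjusted p under 0.05. Eif2s3y gave 1.53, 654 and 1160 in the KO arrays, at background in KO replicate 1, against 0.61 in wild type, also at background. Its signals thus split the arrays into the same pairs as Xist, in the reverse order. The fit without KO replicate 1 sets KO arrays low in Xist against a wild-type array high in it. It cannot separate genotype from that pairing, so its 2 calls are not read as an effect of genotype. By replicate number no paired analysis was possible because the titles of the wild-type and KO samples share none, and the array pair used as a block was read from the signals, not the labels. Dim probe sets limit what can be said of Tap1, Tap2, H2-M3 and most of H2-D1.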
